A study of Mus musculus with 24 samples.

Results

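H3K4me3, a histone mark of active promoters, was examined at 10 genes of the Notch pathway in the mouse mammary epithelial cell line C127. The genes were chosen by name from the 21755 protein-coding genes of the annotation and comprised 4 receptors (Notch1, Notch2, Notch3 and Notch4), 4 ligands (Jag1, Jag2, Dll1 and Dll4) and 2 target genes (Hes1 and Hey1). The series, made to learn where the SET1 complex subunit CFP1 and its mutants occupy chromatin, held 24 ChIP-seq samples in 12 groups, all from C127 cells. They were H3K4me3 ChIP (3 replicates) with its own input (1 sample), and 10 further groups of 2 samples each, namely ChIP of endogenous CFP1, KDM2B and RNA PolII, ChIP with a GFP antibody in stable lines (a GFP control, and tagged CFP1 that was wild type or mutated in the CXXC, the PHD, the CXXC and PHD together, or the SID), and a separate input. The measurement used here is a list of H3K4me3 peaks shared by all 3 replicates. The list holds positions only, so the values have no spread between replicates, read depth is unknown, and no test could be made. A peak also does not tell what share of the cells carried the mark.

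Notch receptors span the cell membrane and bind Delta (Dll) or Jagged (Jag) ligands on a neighbouring cell. Binding leads to cleavage of the receptor by ADAM proteases and then by gamma-secretase, and the released intracellular part enters the nucleus, where it joins the DNA-binding protein RBPJ and a Mastermind coactivator to switch on target genes such as Hes1 and Hey1. In the mammary gland the pathway is known for its part in luminal cell fate, and proviral insertion at Notch4 is a classical cause of mouse mammary tumours.

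The list held 13451 peaks, of which 13447 lay on the 20 chromosomes used (19 autosomes and X), with a median width of 2647 bp and a range of 233 to 37217 bp. A gene was called marked when a peak came within 250 bp of an annotated transcription start site (TSS). Among the marker genes of the labelled cell type, 2 of 12 luminal epithelial genes were marked, Esr1 (2320 bp) and Gata3 (15554 bp), while Cdh1, Cldn3 and Cldn4 had no peak. None of 6 basal genes was marked (Acta2, Cnn1 and Itgb4 among them), against 7 of 9 mesenchymal genes, for example Fn1 (7629 bp), Pdgfra (5111 bp) and Pdgfrb (6884 bp), with no peak at Col1a1 or Thy1. None of 8 endothelial genes (Cdh5, Cldn5 and Egfl7 among them) and none of 6 immune genes (Adgre1 and Cd3e among them) was marked. Beside these counts, 70.2% of all coding genes with a CpG island (a CpG-rich stretch of sequence) at the TSS and 5.02% of those without were marked. An island was present at all 12 luminal and all 9 mesenchymal genes, at 2 of the basal, 4 of the endothelial and 0 of the immune genes, so the counts of the last 3 lists say little about cell type. Few of the luminal markers of the labelled cell type were marked although each had an island. These islands were 271 to 2153 bp long, and the share of marked coding genes differs with island length. It was 22.3% at 200 to 400 bp and 83.9% at 1072 to 1199 bp. How the low luminal count bears on the Notch genes was not tested.

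Of the 10 Notch pathway genes, 6 were marked and 4 were not. This was 60.0% of the Notch genes, beside 49.4% of all protein-coding genes (10747 of 21755). The 10 genes were chosen by name, with earlier results of these data known. The difference is therefore not read as a property of the pathway. The marked genes were the receptors Notch1, Notch2 and Notch3, the ligand Jag1 and both targets. The unmarked genes were the receptor Notch4 and the ligands Jag2, Dll1 and Dll4. Each of the 10 genes has 1 start site in the GENCODE basic set (RefSeq gives several for most of them), and the 6 peaks covered that site and the start codon and reached the TSS of no other coding or lncRNA gene. Positions below are those of mm10.

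Sequences just upstream of the start sites of the 4 receptors and of a marked and an unmarked ligand are shown because they let the base composition of marked and unmarked relatives be read directly. They were taken from RefSeq on GRCm38.p6, run 5′ to 3′ on the strand of the gene, stop before the transcribed part, and have each CpG in capitals. CpG islands, the CpG-rich stretches at many vertebrate promoters, are bound by the CXXC domain of CFP1 when they are not methylated. Methylation was not used here. The stretches of Notch1 (chr2:26503825-26504072, minus strand), Notch2 (chr3:98013288-98013526, plus strand), Notch3 (chr17:32166897-32167140, minus strand) and Jag1 (chr2:137116645-137116770, minus strand) lay wholly within their peaks, and those of Notch4 (chr17:34564045-34564267, plus strand) and Dll4 (chr2:119325534-119325783, plus strand) lay in no peak.
Notch1: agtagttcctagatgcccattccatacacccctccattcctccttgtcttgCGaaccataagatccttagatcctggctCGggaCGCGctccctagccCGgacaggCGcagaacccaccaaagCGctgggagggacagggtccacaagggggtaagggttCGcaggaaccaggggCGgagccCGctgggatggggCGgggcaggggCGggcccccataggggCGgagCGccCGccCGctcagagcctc
Notch2: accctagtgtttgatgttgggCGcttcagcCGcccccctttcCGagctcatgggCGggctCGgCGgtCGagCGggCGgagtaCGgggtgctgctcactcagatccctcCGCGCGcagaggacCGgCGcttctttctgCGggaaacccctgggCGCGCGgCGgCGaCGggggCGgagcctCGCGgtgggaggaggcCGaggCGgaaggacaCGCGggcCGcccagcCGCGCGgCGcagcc
Notch3: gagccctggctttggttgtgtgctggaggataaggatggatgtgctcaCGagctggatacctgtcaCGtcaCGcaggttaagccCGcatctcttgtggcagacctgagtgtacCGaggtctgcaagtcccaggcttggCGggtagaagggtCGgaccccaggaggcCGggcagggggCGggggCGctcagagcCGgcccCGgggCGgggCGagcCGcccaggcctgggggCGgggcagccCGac
Notch4: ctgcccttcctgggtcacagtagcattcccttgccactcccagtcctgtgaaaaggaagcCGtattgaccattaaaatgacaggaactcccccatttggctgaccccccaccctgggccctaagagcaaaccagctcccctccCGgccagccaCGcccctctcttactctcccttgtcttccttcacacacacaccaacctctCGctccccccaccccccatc
Jag1: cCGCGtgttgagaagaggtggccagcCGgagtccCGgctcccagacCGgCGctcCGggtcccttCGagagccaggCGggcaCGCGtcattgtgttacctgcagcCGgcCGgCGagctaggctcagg
Dll4: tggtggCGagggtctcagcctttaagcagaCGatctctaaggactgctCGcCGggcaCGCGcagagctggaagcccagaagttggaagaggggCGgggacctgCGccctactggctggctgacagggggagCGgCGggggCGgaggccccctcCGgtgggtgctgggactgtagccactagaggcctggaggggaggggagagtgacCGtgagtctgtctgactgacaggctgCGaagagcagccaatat
Of the receptors, Notch2 carried 34 CpGs in 239 bases (14.2 per 100 bases), Notch3 carried 17 in 244 bases (7.0 per 100 bases) and Notch1 carried 16 in 248 bases (6.5 per 100 bases). The unmarked Notch4 carried 4 in 223 bases (1.8 per 100 bases). Of the ligands, marked Jag1 held 14 CpGs in 126 bases (11.1 per 100 bases) and unmarked Dll4 held 14 in 250 bases (5.6 per 100 bases). The 2 unmarked stretches were thus less dense in CpG than the 4 marked ones, Dll4 by a small margin below Notch1. This order holds only for the stretches shown, which differ in length. In RefSeq promoter windows of 300 bases, unmarked Jag2, not shown here, held 63 CpGs and marked Jag1 held 22. The Jag2 window lies wholly downstream of the GENCODE start of that gene, so the Jag2 and Jag1 counts are not of like positions. Unmarked Dll1 held 24 at its more downstream start and 15 at the other.

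**Figure D1:**
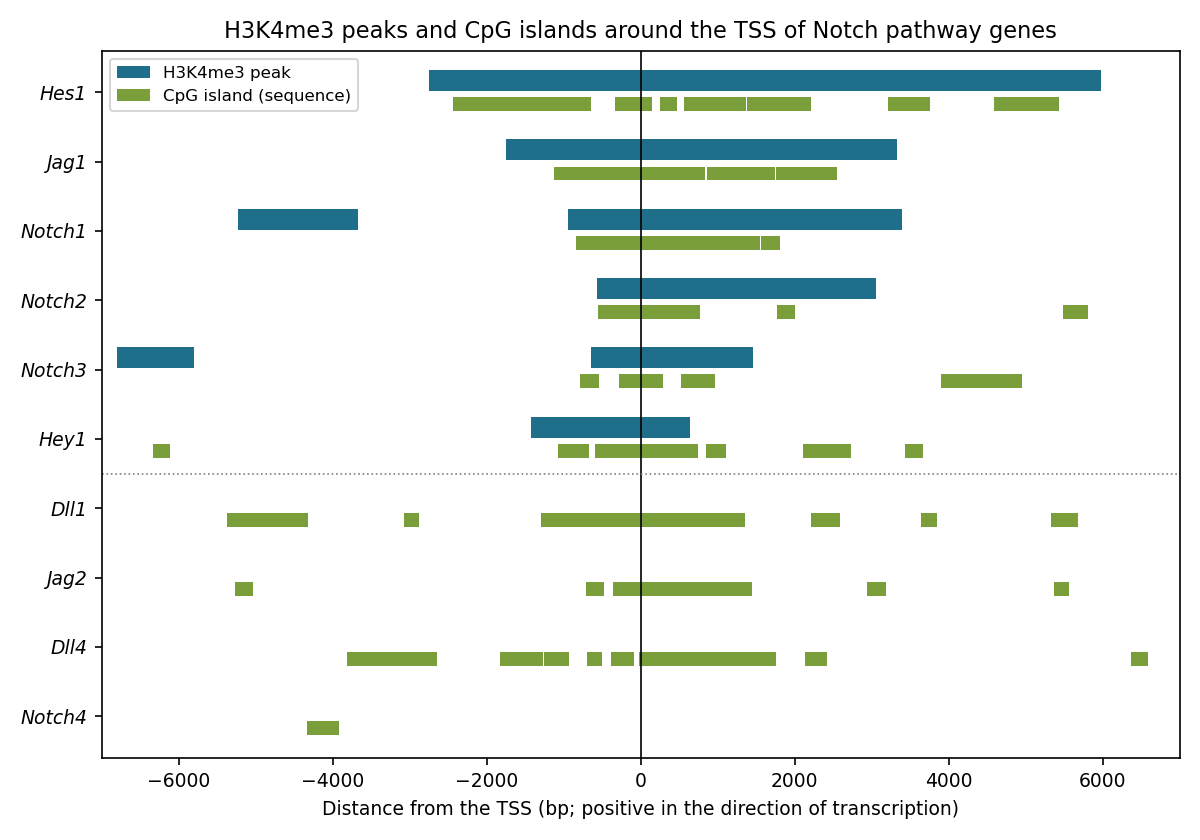
H3K4me3 peaks (blue) and CpG islands found in the sequence (green) around the TSS of each of the 10 Notch pathway genes, plotted as distance from the TSS in bp with transcription to the right; marked genes are above the dotted line and ordered by peak width. Hes1 has the widest peak (8723 bp) over 7 islands, Dll1, Jag2 and Dll4 have islands of 2302, 1816 and 1776 bp at the TSS and no peak, and Notch4 has neither; the peaks left of those of Notch1 and Notch3 lie at no TSS.

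Among the receptors, Notch1 had the widest peak. Notch1, a receptor needed for the fate of many cell types, lies on chromosome 2 (26457903 to 26503822, minus strand), and its peak ran from 26500423 to 26504770 (4348 bp). This was wider than the widest TSS peak of 76.6% of marked coding genes, whose quartiles were 2410.5, 3254 and 4258 bp. The peak extended 948 bp upstream and 3399 bp downstream of the TSS, over exons 1 and 2 of 34. It held the whole of a CpG island of 2394 bp (26502268 to 26504661) with 157 CpGs, 61.6% GC and a ratio of observed to expected CpG of 0.693, a length above that of 98.1% of genes with an island.

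Notch2, the receptor that shares the most residues with Notch1, carried a 3629-bp peak (chromosome 3, 98012965 to 98016593), at the 60.8th percentile of width. It covered exon 1 of 34 and extended 573 bp upstream and 3055 bp downstream of the TSS at 98013538. Its island was shorter than that of Notch1, 1324 bp with 118 CpGs, but the 501 bp around its TSS held 68 CpGs, more than at 94.4% of coding genes. The corresponding number was 48 at Notch1 (76.3rd percentile), so that the receptor with the longer island had the lower CpG count next to its start.

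Notch2 differed from the other members in having 3 further peaks inside the gene. They were 2771 bp (98023944 to 98026714), 2433 bp (98042241 to 98044673) and 1612 bp wide (98055477 to 98057088), began 10406, 28703 and 41939 bp downstream of the TSS, touched none of the 34 exons and held no annotated coding or lncRNA TSS. The nearest of them held 2 CpG islands and the others held none. No further peak lay within 100 kb of the gene besides its own.

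Notch3, a receptor known for its role in vascular smooth muscle, carried a narrow 2104-bp peak (chromosome 17, 32165389 to 32167492), at the 16.8th percentile. It covered exon 1 of 33 with 640 bp upstream and 1463 bp downstream of the TSS at 32166852. The island at the TSS was 571 bp long with 42 CpGs, and 42 CpGs also lay in the 501 bp around the start (67.7th percentile). Notch3 thus had the narrowest peak and the shortest island of the 3 marked receptors. Stricter criteria (500-bp in place of 200-bp windows, GC fraction of 0.55 and ratio of 0.65) returned a longer island of 1603 bp there. The order of Notch3 by island length therefore rests on the definition.

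Notch4, a receptor best known from endothelial cells, had neither a peak nor an island at its TSS (34564268 on chromosome 17, plus strand). The 501 bp around the TSS held 8 CpGs, the 23.8th percentile, although the GC content was 60.1%. Its 3′ end was nevertheless covered by H3K4me3. A peak of 10148 bp (34585897 to 34596044) at the TSSs of Gpsm3 and Pbx2 began 21629 bp downstream of the Notch4 start and overlapped 2607 bp of the gene with exons 27 to 30 of 30. A count of peaks over gene bodies would therefore call Notch4 marked, and the TSS rule does not.

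Of the ligands, only Jag1 was marked. Jag1, a Jagged ligand, lies on chromosome 2 (137081456 to 137116644, minus strand) and had a peak of 5073 bp (137113322 to 137118394), at the 86.3rd percentile of width. The peak covered exons 1 and 2 of 26 with 1750 bp upstream and 3322 bp downstream of the TSS, and it was the only peak within 100 kb of the gene. The island at the TSS was 1959 bp long with 164 CpGs. The 501 bp around the TSS, however, held only 35 CpGs (57.0th percentile), fewer than at the unmarked ligands Jag2 and Dll1.

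Jag2, the other Jagged ligand, had no peak at its TSS (112929776 on chromosome 12) and the most CpG-rich promoter of the 10 genes. Its island was 1816 bp long with 256 CpGs, 75.9% GC and a ratio of observed to expected CpG of 0.981, and 77 CpGs lay in the 501 bp around the TSS, more than at 97.9% of coding genes. In the RefSeq promoter window of 300 bases Jag2 had 63 CpGs, and only 4 of 20061 promoters of coding genes had more. That window (112929446 to 112929745) belongs to a RefSeq start at 112929495 and lies wholly downstream of the GENCODE start used here. It is therefore transcribed sequence by the GENCODE annotation, and not sequence upstream of the start. The nearest peak was 478 bp wide, began 8218 bp upstream and lay at no TSS, and the next one, 2693 bp wide and 10191 bp upstream, lay at Nudt14. Peaks at Cdca4, Btbd6, Brf1 and Pacs2 also lay within 100 kb of the unmarked Jag2 start.

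Dll1, a Delta ligand, had no peak at its TSS (15375976 on chromosome 17), although its island of 2302 bp (171 CpGs) was the second longest of the 10 genes and longer than that of 97.7% of genes with an island. The 501 bp around the start held 40 CpGs (64.6th percentile). The lncRNA gene A930024N18Rik starts 976 bp away on the other strand, and no peak lay there either. The only peak within 100 kb, 3116 bp wide, lay at Fam120b and began 19253 bp upstream.

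Dll4, a Delta ligand known from endothelial tip cells, had no peak at its TSS (119325784 on chromosome 2) and lay in a run of islands, of which the longest at the TSS was 1776 bp with 116 CpGs. With 29 CpGs in the 501 bp around the start (49.0th percentile) it was the least CpG-dense of the unmarked ligands. The lncRNA gene Gm14207 starts 410 bp away on the other strand and had no peak of its own. The nearest peak, 1240 bp wide, began 11683 bp downstream beyond the end of the gene and held 1 island and no TSS. Peaks at Vps18 (3364 bp wide, 34426 bp upstream) and Chac1 (4102 bp wide, 24393 bp downstream) flanked the locus.

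Both target genes were marked, with a wide peak at Hes1 and a narrow one at Hey1. Hes1, a transcriptional repressor of the basic helix-loop-helix class, lies on chromosome 16 (30065340 to 30067796, plus strand) and had a peak of 8723 bp (30062593 to 30071315), the 197th widest among 10747 marked coding genes (98.2nd percentile). The peak extended 2747 bp upstream and 5975 bp downstream of the TSS and so covered the whole gene with its 4 exons and the sequence beyond it. The island at the TSS was short, 486 bp with 21 CpGs and a GC content of 50.8%, and was lost under the stricter criteria. The peak nevertheless held 7 islands, which together made up 5533 bp or 63.4% of it.

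Hey1, a repressor of the related Hey class, carried a 2059-bp peak (chromosome 3, 8666621 to 8668679), at the 15.8th percentile. The island of 1348 bp with 137 CpGs lay 91.7% within the peak, and the 501 bp around the TSS (8667256, minus strand) held 74 CpGs, the 97.0th percentile. Hey1 thus had a narrow peak on a CpG-dense promoter, and Hes1 a wide peak on a promoter whose 501 bp held 24 CpGs (43.5th percentile). The peak of Hey1 covered exon 1 of 5 and was the only peak within 100 kb.

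**Figure D2:**
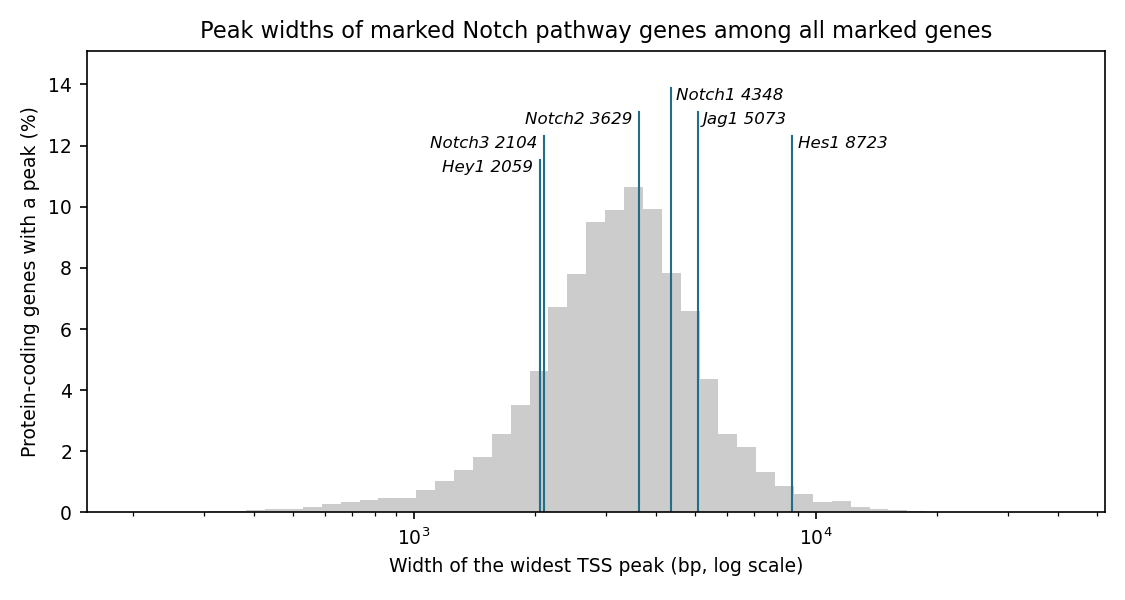
Width of the widest TSS peak (bp, log scale) of the 6 marked Notch pathway genes (blue lines, labelled with the width) over the distribution of all 10747 marked protein-coding genes (grey bars, percent of genes per bin). Hey1 and Notch3 fall below the lower quartile of 2410.5 bp, Notch1, Jag1 and Hes1 above the upper quartile of 4258 bp, and Notch2 between them.

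The presence of an island did not separate marked from unmarked ligands. At 9 of the 10 Notch genes an island came within 250 bp of the TSS, beside 68.1% of coding genes, and only Notch4 had none. Of these 9 genes 6 were marked, beside 70.2% of all coding genes with an island. With the stricter islands 5 of 8 were marked, beside 77.6%, Hes1 being the gene lost. Without an island, as for Notch4, 5.02% of coding genes were marked (349 of 6947).

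Long islands were found at marked and unmarked members alike. Among the longest islands (over 1283 bp, the upper quartile) were those of 7 Notch genes, of which Notch1, Notch2, Jag1 and Hey1 were marked and Jag2, Dll1 and Dll4 were not, beside 79.3% of the coding genes with islands above that length. The share of marked genes over 10 classes of island length went up from 22.3% (200 to 400 bp) to 83.9% (1072 to 1199 bp) and was 75.2% in the class of the longest islands (1655 to 4747 bp). That class held 5 of the members, Notch1 and Jag1 with a peak and Jag2, Dll1 and Dll4 without. Among coding genes whose island was within 20% of the member's own length, 78.0% were marked for Jag2 (1603 of 2054), 75.8% for Dll1 (647 of 854) and 78.6% for Dll4 (1716 of 2183). Marked members had similar values, 74.6% for Notch1 (521 of 698) and 77.3% for Jag1 (1229 of 1590), and lower ones where the island was short, 60.9% for Notch3 (1234 of 2027) and 47.4% for Hes1 (683 of 1440). The values of these last genes rest on the island definition, since the island was 1603 bp at Notch3 with stricter criteria and 1799 bp at Hes1 when islands up to 1000 bp from the TSS were taken. Notch2 (82.6%) and Hey1 (82.8%) had the highest.

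**Figure D3:**
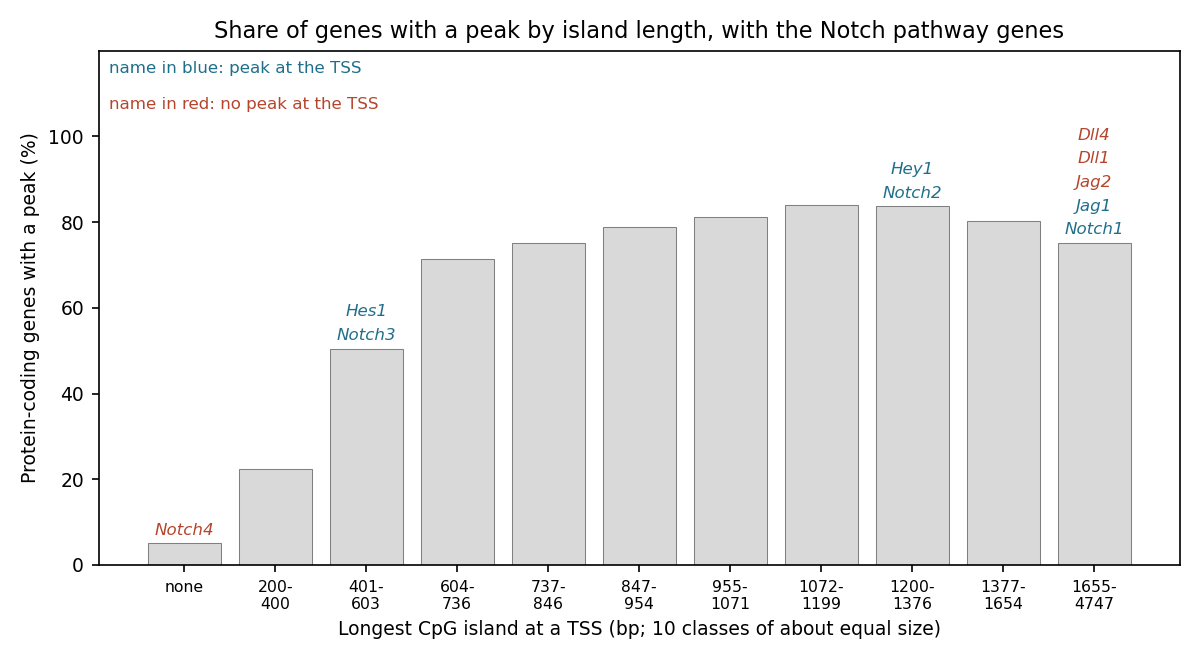
Percent of protein-coding genes with an H3K4me3 peak (bars) by the length of the longest CpG island at a TSS in bp, with genes without an island at the left; names above the bars are the Notch pathway genes in that class, blue with a peak and red without. In the class of 1655 to 4747 bp, where 75.2% of genes are marked, Notch1 and Jag1 are marked and Jag2, Dll1 and Dll4 are not.

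Peak width was also compared with that of marked genes of similar island length. The peak of Hes1 was wider than that of 98.7% of 683 such genes, whose median was 2363 bp. Jag1 lay at the 70.5th percentile (median 4373 bp) and Notch2 near the middle at the 51.0th (median 3597 bp). Notch1, at the 76.6th percentile among all marked genes, was at the 39.2nd among 521 genes with an island like its own (median 4699 bp). Notch3 was at the 35.3rd percentile (median 2449 bp), which like that of Hes1 holds only for the short island of the main definition, and Hey1 at the 7.0th (median 3635 bp). The share of a peak made up of islands was highest at Hey1 (79.7%) and Jag1 (71.7%), followed by Hes1 (63.4%), Notch1 (60.8%), Notch3 (53.2%) and Notch2 (42.8%).

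The peaks of 5 of the 6 marked members reached farther downstream than upstream of the TSS. Among 3195 coding genes with 1 TSS inside a peak and no opposite TSS within 2 kb, 92.7% did so, with a median of 2132 bp downstream and 748 bp upstream. The excess on the downstream side was 3228 bp at Hes1 (94.3rd percentile), 2482 bp at Notch2 (87.2nd), 2451 bp at Notch1 (87.0th), 1572 bp at Jag1 (62.2nd) and 823 bp at Notch3 (29.9th). Hey1 was the exception, with 1423 bp upstream and 635 bp downstream, a difference of -788 bp at the 2.2nd percentile. The downstream reach of Hey1 was below that of all but 3.3% of these genes, and its upstream reach was at the 84.6th percentile.

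Peaks at no TSS lay near several members. A peak of 1553 bp began 3673 bp upstream of Notch1 and another of 997 bp began 5807 bp upstream of Notch3, and neither held an island. The Notch3 locus had 2 more such peaks beyond the 3′ end of the gene, 576 bp wide at 48306 bp and 1275 bp wide at 75012 bp downstream of the TSS. Including the 3 intragenic peaks of Notch2, the 3 marked receptors had 7 narrower peaks of this kind within 100 kb. Hes1 had 1 other peak in this range (1618 bp), at the lncRNA gene 4632428C04Rik, 55513 bp upstream, and Jag1 and Hey1 had none. Such peaks were not particular to marked genes, as 4 lay within 100 kb of the Dll4 gene (529 to 1240 bp wide), 2 within that distance of Jag2 (478 and 1889 bp) and 3 of Notch4 (612, 1231 and 1579 bp).

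**Figure D4:**
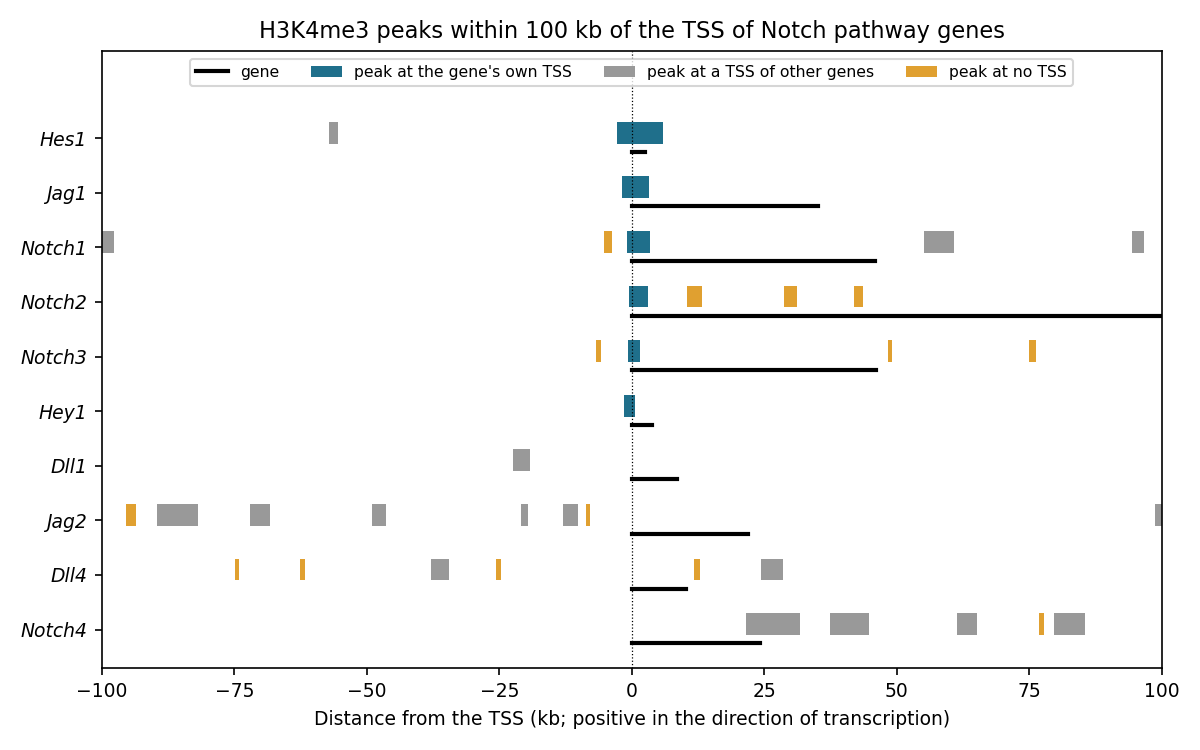
H3K4me3 peaks within 100 kb of the TSS of each Notch pathway gene, plotted as distance from the TSS in kb with transcription to the right (blue, peak at the gene's own TSS; grey, at a TSS of other genes; orange, at no TSS; black line, the gene). Notch2 has 3 orange peaks inside the gene, the grey peak over the end of Notch4 is that of Gpsm3 and Pbx2, and Jag1 and Hey1 stand alone with their own peak.

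Reads without a unique position had been discarded by the authors, so the sequence around each TSS was checked for copies elsewhere. Each of the 91 words of 50 bases taken within 250 bp of a TSS occurred once in the genome at all 10 genes, the 4 unmarked ones included. Marked and unmarked relatives were also compared by protein sequence. Notch1 and Notch2 were identical at 54.1% of aligned positions, Notch3 at 47.7% to Notch1 and 48.6% to Notch2, and the unmarked Notch4 at 33.9%, 34.2% and 34.7% to Notch1, Notch2 and Notch3. Marked Jag1 and unmarked Jag2 were 52.4% identical, close to the value of the marked pair Notch1 and Notch2. Dll1 and Dll4, both unmarked, were 47.2% identical, and Hes1 and Hey1, both marked, 30.4%.

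Promoter windows from RefSeq (250 bases before to 50 after a start, GRCm38.p6) were searched on both strands for short motifs. Of the 10 genes 8 had an entry, all but Hes1 and Hey1, with 2 starts for Dll1, and the RefSeq start can differ from the GENCODE one. The window of Jag2 lies wholly downstream of its GENCODE start, so its matches below are not upstream of that start. The letters TGGGAA, the core of the site bound by RBPJ, occurred in none of the 9 windows and in 24.3% of 20061 promoters of coding genes. GGGCGG, the letters bound by SP factors, occurred 7 times at Notch2, 5 times at Notch1, 4 times at Notch3, 5 times at Jag2 (the matches at -80 and -76 overlap) and 2 times at Dll4, and not at Notch4, Jag1 or Dll1, beside 48.0% of promoters with at least 1 match. The 3 marked receptors thus shared these letters, and the only marked ligand lacked them. CACGAG, the N box bound by HES proteins, occurred once, at -204 of Notch3 (7.3% of promoters), and can be read in the Notch3 sequence above. CCAAT occurred 2 times at the more downstream Dll1 start and 1 time at Dll4 (37.9% of promoters), while CACGTG (8.1%) and TATAAA (12.1%) occurred at none. A match is a description of the letters and not evidence of binding.

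The rest of the pathway was read from a list of 60 genes grouped by role. Of these, 45 had a peak (75.0%) and 15 had none, and 58 had an island. The share is near that of all coding genes with an island (70.2%, or 77.6% with the stricter islands) and is not a result about the pathway, and the counts by role below are read beside the same values. Among the 45 marked genes the median width was 4040 bp. In 8 of the 45 the peak also reached the TSS of another coding gene (for example Copa at Ncstn and Plagl2 at Pofut1), and which gene the mark belongs to cannot be told apart there.

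The enzymes that cut the receptor were nearly all marked. Of the 7 gamma-secretase genes 6 had a peak, among them Psen2 (2486 bp), a catalytic subunit, Ncstn (4155 bp), Aph1a (3233 bp), Aph1b (2421 bp) and Psenen (3631 bp), and Aph1c, a close relative of Aph1b, had none despite an island of 1241 bp. Whether its promoter recurs elsewhere in the genome was not tested. The proteases Adam10 (3703 bp), Adam17 (3389 bp) and Furin (6323 bp), which cut the receptor before gamma-secretase does, were marked. Of the sugar-adding enzymes, Lfng, the Fringe that tunes the response to Delta and Jagged, had the widest peak (8954 bp, 98.3rd percentile), Pofut1 (6062 bp), Rfng (5916 bp) and Poglut1 (1768 bp) were marked, and the third Fringe gene, Mfng, with an island of 212 bp, was not.

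On the nuclear side of the pathway most genes were marked. Of the 9 genes of the nuclear complex 8 had a peak, among them Rbpj (5221 bp, 87.7th percentile), the Mastermind coactivator Maml2 (5655 bp, without an island) and the acetyltransferases Ep300 (5428 bp) and Kat2b (4967 bp). Rbpjl, a relative of Rbpj that also lacks an island, had no peak. Of 10 corepressor genes 9 were marked, with the peaks of Tle3 (9166 bp), Tle2 (8650 bp) and Tle1 (5417 bp) among the widest, and without a peak at Tle4. Of 15 genes of endocytosis and turnover 12 were marked, including Fbxw7 (5435 bp), which targets the receptor fragment for degradation, the kinase gene Aak1 (5113 bp), Numbl (5088 bp), a relative of the inhibitor Numb, and Neurl1b (4936 bp), a ubiquitin ligase acting on ligands. Dtx1, Neurl1a and Nrarp, a feedback inhibitor that is itself a Notch target, had no peak.

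Few genes had a peak in the lists of further ligands and of further Hes and Hey genes. Of 4 further ligand genes only Dlk2 was marked (2597 bp), and Dll3, Dlk1 and Dner were not, so that with the members 2 of 8 ligand genes had a peak. Of 7 further Hes and Hey genes, Hes6 (2359 bp) and Hes7 (4227 bp, a peak shared with 9130213A22Rik) were marked, and Hes2, Hes3, Hes5, Hey2 and Heyl were not. All 8 unmarked genes of these 2 groups had an island, of 212 bp at Hes3 to 1285 bp at Hes5. These counts stand beside 70.2% of coding genes with an island, rest on 11 genes, and were not tested against the other roles.

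**Figure D5:**
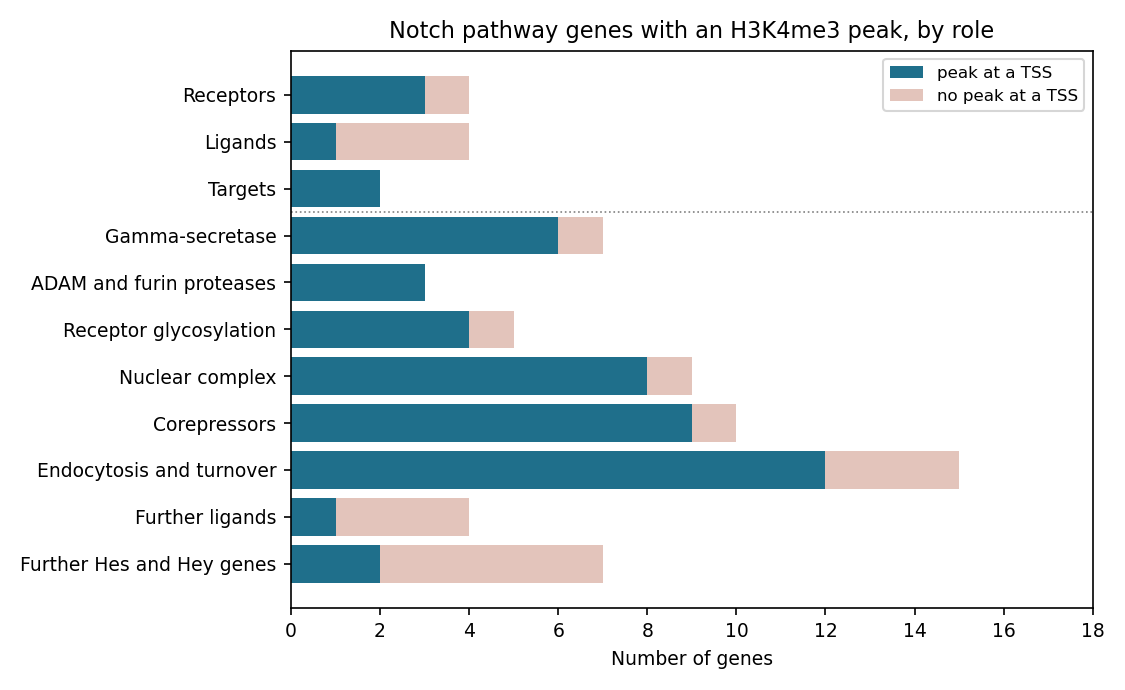
Number of Notch pathway genes with (blue) and without (pale red) an H3K4me3 peak at a TSS, by role; the 10 genes described in full are above the dotted line and the list of 60 genes is below. Ligands and further ligands have 1 marked gene of 4 each, and further Hes and Hey genes 2 of 7, while corepressors have 9 of 10.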

How the data were processed

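H3K4me3 ChIP-seq was performed on formaldehyde-crosslinked C127 cells. Per the methods of the study, the authors aligned reads to mm10 with Bowtie2, discarded reads without a unique position and removed duplicates with SAMtools. They called peaks with MACS for each replicate against a matched control. Peaks had to overlap in every replicate, and close peaks were merged. Versions are not given in the sources used here. The deposited list gives chromosome, start and end, the authors' only unit being a position in bp, with no score or height, so depth is unknown and only presence and width could be read. A gene whose peak failed in 1 replicate is not in the list.

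Samples were grouped by their labels. The 21 other samples were not analysed here. Starts were converted to 1-based positions. TSSs were GENCODE vM21 basic starts on GRCm38.p6, the build of the list. A gene was marked when a peak lay within 250 bp of a TSS. CpG islands were unions of 200-bp windows in which GC made up 0.5 or more of the bases and the ratio of observed to expected CpG was 0.6 or more (177633 islands). Percentiles are the share of genes with a lower value. For CpG counts in the 501 bp around a TSS, a gene with several TSSs entered with its highest count. Proteins were translated from GENCODE coding sequences, in place of RefSeq proteins, and aligned globally. Alternatives were other TSS distances, 1 TSS per gene, RefSeq TSSs, a minimum peak width and stricter islands. The text names every member, every gene of role lists of up to 8 genes, the 4 widest marked and up to 4 unmarked of longer ones, up to 3 marked and 3 unmarked markers in alphabetical order, and neighbouring genes. Some genes that this rule would name are left out of the text. The members and lists were chosen with earlier results of these data known. The scripts were tested on simulated data. Python 3.11.15, numpy 2.4.6, pandas 2.3.3, Biopython 1.88 and matplotlib 3.10.9 were used.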

Additional observations from a re-analysis of the deposited data

How the results depend on the processing

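The 6 marked and 4 unmarked Notch genes were the same when a peak had to lie at the TSS (0 bp) or within 1000 bp of it, with 1 TSS per gene, with RefSeq TSSs and with peaks of at least 1000 bp, and the 6 widths did not change. All coding genes with a peak numbered 10308 (1 TSS per gene) to 10883 (1000 bp) under these alternatives, against 10747, and the pathway list had 44 or 45 marked genes. The 0-bp, 1000-bp, 1-TSS and minimum-width settings could not have changed the calls of the members. Each member has 1 TSS, the 6 peaks cover it, and the narrowest of them is 2059 bp wide. The peak nearest to the start of any unmarked member lay 8218 bp away, at Jag2. With stricter islands, 8 in place of 9 members had an island, and the island of Notch3 was 1603 bp in place of 571 bp and that of Jag1 3065 bp in place of 1959 bp. With islands up to 1000 bp from a TSS, that of Hes1 was 1799 bp. No paired analysis was possible because the replicates enter as 1 consensus list and no result comes from a test, and for the same reason no replicate could be left out. Without depth, a missing peak cannot be told apart from a weak one.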
